A study of Mus musculus with 4 samples.

Results

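Prom1+ and Prom1- cells were compared within the CD49f+CD45- fraction of the livers of mice with alcoholic hepatitis, gene by gene, in 1 library of each. Of 41128 genes in the deposited table of estimated counts, the 19807 with at least 10 counts in either library were compared. C57BL/6 mice in every group took 40% of their calories from a diet rich in cholesterol and fat and 60% from a liquid alcohol diet infused into the stomach, with a binge each week. Hepatocytes were spun out of the digested livers, CD45+ leukocytes were taken out with magnetic beads, and the remaining presorted CD45- cells were sorted by flow cytometry on Prom1, CD49f and CD45. The compared populations were Prom1+CD49f+CD45- and Prom1-CD49f+CD45-, with Prom1+CD49f+CD45+ and the presorted CD45- cells as the other libraries, and each had 1 library from the pooled RNA of 2 mice. All 4 came from diseased livers, so that no library shows these cells in a healthy liver.

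Prominin-1 (Prom1, also called CD133) is a membrane glycoprotein of apical protrusions and cilia, used to isolate duct and progenitor cells from liver. CD49f, the integrin alpha 6 chain encoded by Itga6, binds laminin in basement membranes and is carried by bile duct epithelium and by endothelium, so a CD49f gate can hold both. Bile ducts are lined by cholangiocytes, polarized epithelial cells with a primary cilium that secrete bicarbonate and water into bile. Liver endothelium has sinusoidal, arterial, venous and lymphatic branches, and it instructs its neighbours with secreted signals, among them the Wnt ligands and R-spondins of the central vein.

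Levels are CPM, the usual unit of counts relative to library size, put on one scale across libraries with TMM, a trimmed mean of M values. Each ratio of Prom1+ over Prom1- has an exact 95% interval for counting error alone, in parentheses. A gene is called higher or lower in Prom1+ where that whole interval lay beyond 2-fold. With 1 library a side no difference has a replicate check, and no test or p-value was computed. In RNA of bulk cells, fewer cells of a type and less RNA per cell cannot be told apart. By this rule 3349 genes were higher (16.9% of those compared) and 2704 lower (13.7%), so 55.3% of calls were higher; the share was 41.0% with TMM over these 2 libraries alone, 46.0% with the size factors of DESeq2 and 67.2% with library totals. Counts of calls in the gene lists and pairs below are to be read beside the shares of 16.9% higher and 13.7% lower. The lower genes moved farther: the whole interval lay beyond 16-fold for 5 genes higher in Prom1+ and for 457 lower in it. Depth was 30239484 counts in Prom1+ and 14670239 in Prom1-. Ratios went with transcript length, and the length adjusted ratio, which sets a gene against genes of like length, is given where it changes the call of a gene named here.

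The gene of the sorted protein separated the libraries. Prom1 (ENSMUSG00000029086; chromosome 5, 43993620 to 44102032, minus strand, mm10) was at 355 (349 to 362) CPM in Prom1+ and 31.1 (28.2 to 34.1) in Prom1-, against 67.1 in presorted cells, and it was 11.4-fold higher (10.4 to 12.6). Relative to genes of like length it was 9.46-fold higher (8.6 to 10.4). Itga6, the gene of CD49f, for which both populations were gated, stood at 72.9 against 50.5, a ratio of 1.44 (1.33 to 1.57) that was not called. Ptprc, the gene of CD45, against which both were gated, was at 6.33 against 3.6, a ratio of 1.76 (1.29 to 2.43), also not called. Cdh1 (ENSMUSG00000000303; chromosome 8, 106603351 to 106670246, plus strand) was 11.6-fold higher (11.2 to 12.1) and Sox9 (ENSMUSG00000000567; chromosome 11, 112782224 to 112787760, plus strand) 7.26-fold higher (6.87 to 7.67), while Ccl21a (ENSMUSG00000094686; chromosome 4, 42772860 to 42773993, minus strand) was 437-fold lower (379 to 506) and Rspo3 (ENSMUSG00000019880; chromosome 10, 29452416 to 29535867, minus strand) 244-fold lower (185 to 328). Ccl21a has near-identical copies, so its own count is uncertain, and Prom1 and Rspo3 overlap predicted genes on the other strand.

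**Figure D1:**
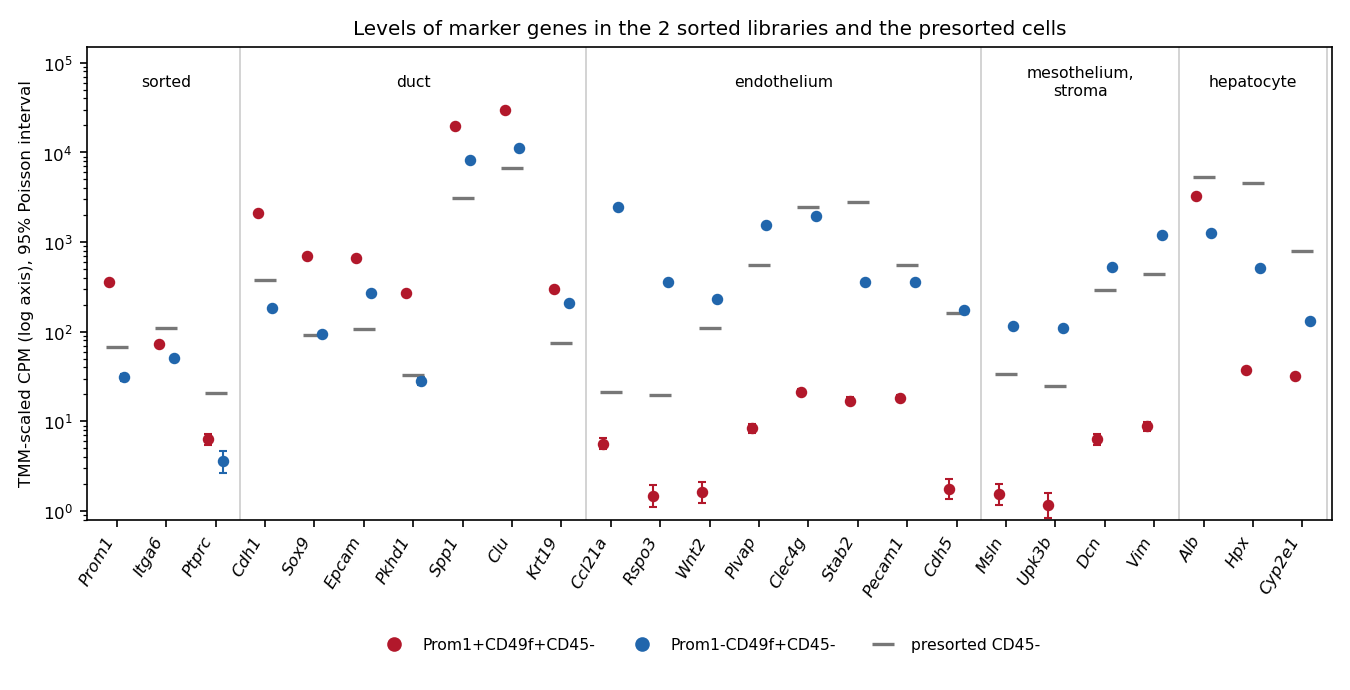
Level of 25 marker genes in TMM-scaled CPM (vertical log axis) in the Prom1+ library, the Prom1- library and, as grey dashes, the presorted cells; bars are exact 95% Poisson intervals and there is 1 library per population. Cdh1 goes from 183 CPM in Prom1- to 2132 in Prom1+ and Ccl21a from 2473 to 5.66, while Itga6 and Krt19 lie close together in both.

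The promoters of genes on both sides of this split are shown because many duct genes were higher together: Prom1, Epcam and Pkhd1 from the duct side and Ccl21a and Erg from the endothelial side, chosen with their values known. They are the 250 bases before the RefSeq start (GRCm38.p6, 5′ to 3′ on the strand of the gene) at chr5:44101737-44101986 (minus), chr17:87635729-87635978 (plus), chr1:20618058-20618307 (minus), chr4:42773992-42774241 (minus) and chr16:95586594-95586843 (minus), with motif matches on either strand in capitals.
Prom1: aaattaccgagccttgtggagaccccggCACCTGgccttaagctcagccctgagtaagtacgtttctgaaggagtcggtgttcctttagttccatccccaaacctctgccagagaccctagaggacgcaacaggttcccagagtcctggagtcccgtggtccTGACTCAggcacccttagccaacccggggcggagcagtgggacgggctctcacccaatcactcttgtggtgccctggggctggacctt
Epcam: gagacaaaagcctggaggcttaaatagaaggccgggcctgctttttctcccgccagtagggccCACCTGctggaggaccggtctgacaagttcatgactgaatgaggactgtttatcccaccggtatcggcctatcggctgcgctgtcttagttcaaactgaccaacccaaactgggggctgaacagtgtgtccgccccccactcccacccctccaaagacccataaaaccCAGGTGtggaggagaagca
Pkhd1: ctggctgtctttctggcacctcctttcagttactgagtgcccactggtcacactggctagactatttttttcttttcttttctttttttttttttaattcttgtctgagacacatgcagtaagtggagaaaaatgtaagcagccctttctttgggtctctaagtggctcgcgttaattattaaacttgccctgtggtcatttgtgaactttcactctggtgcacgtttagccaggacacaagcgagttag
Ccl21a: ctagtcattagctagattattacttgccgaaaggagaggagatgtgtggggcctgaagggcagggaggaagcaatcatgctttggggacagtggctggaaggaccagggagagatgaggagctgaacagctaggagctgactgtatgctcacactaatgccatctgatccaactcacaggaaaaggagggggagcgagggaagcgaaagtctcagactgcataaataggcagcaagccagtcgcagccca
Erg: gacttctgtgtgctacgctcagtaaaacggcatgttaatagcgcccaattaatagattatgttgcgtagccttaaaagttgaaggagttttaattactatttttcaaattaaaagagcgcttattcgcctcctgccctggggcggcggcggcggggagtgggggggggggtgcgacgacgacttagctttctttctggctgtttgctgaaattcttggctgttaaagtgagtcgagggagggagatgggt
The motifs searched, on both strands, were a FOX site TGTTTAC, an ETS site CAGGAAGT, the E-box CAGGTG to which the SNAI and ZEB repressors of epithelial genes are known to bind, a TEAD site CATTCC, an AP-1 site TGANTCA, a SOX site ACAATG and a GATA site AGATAA. In Prom1 the capitals mark an E-box 222 bases and an AP-1 site 88 bases before the start, and in Epcam E-boxes at 187 and 19 bases; in Pkhd1, Ccl21a and Erg none of these letters occurred, and no matches overlapped. The RefSeq start of Prom1 lies 296 bases downstream of the start of the GENCODE gene, so the stretch printed for Prom1 lies inside that gene.

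Among the genes called higher from the epithelial and duct factor lists, 45 of 71 had a promoter sequence, and CAGGTG occurred in 17 of them, 37.8%. The share was 16.2% of 37 promoters of endothelial genes called lower, 21.3% of 2196 promoters of all genes called higher, 15.9% of 13391 promoters of genes compared and 16.8% of all 18688 promoters. For the other motifs the shares in the 45 and in all genes compared were 2.22% and 2.29% for FOX, 2.22% and 2.71% for ETS, 8.89% and 11.3% for TEAD, 8.89% and 5.32% for AP-1, 2.22% and 7.21% for SOX, and 13.3% and 7.12% for GATA. The 71 genes were taken from lists chosen with earlier results known and then by their call, so these shares are descriptions only. A match describes these letters and is not a binding site, and the part of SNAI and ZEB factors was not tested.

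Bile duct identity genes were higher in Prom1+ cells. Of 30 cholangiocyte markers 24 were called higher and 0 lower, with a median log2 ratio of 1.89 against 0.45 over all genes compared. Cdh1 (E-cadherin, which joins epithelial cells at adherens junctions) stood at 2132 against 183 CPM, and its desmosomal relative Dsg2 at 1684 against 152. Pkhd1, which encodes fibrocystin of the duct cilium, was 9.67-fold higher (8.75 to 10.7), and Cftr, the chloride channel of bile secretion, 9.1-fold higher (6.96 to 12.1). The most abundant duct transcripts differed less: Clu (clusterin) was at 29905 against 11342 and 2.64-fold higher (2.62 to 2.65), and Spp1 (osteopontin) at 19684 against 8188 and 2.4-fold higher (2.39 to 2.42), a call that ended with TMM over these 2 libraries alone. The duct keratins were among the markers that differed least, with Krt19 at 301 against 209 and Krt7 at 218 against 152, neither called. Car2, another marker of the list, had a ratio of 1.41. Relative to genes of like length Krt19 was 2.27-fold higher (2.17 to 2.36).

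Duct transcripts, Prom1 among them, were also present in the Prom1- library. Clu and Spp1 were among the largest counts of the Prom1- library, where they lay above their presorted levels of 6632 and 3103. Without these 2 genes, the cholangiocyte markers summed to 11918 CPM in Prom1+, 2803 in Prom1- and 2191 in presorted cells. The median marker was at 312 CPM in Prom1+ and 93.7 in Prom1-, and none was at 0 in either.

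The transcription factors of duct cells were higher in 18 of 25 cases and lower in 0 (median 1.94). Onecut1, a factor of duct development, was 6.9-fold higher (5.92 to 8.08). Grhl2, which maintains epithelial junction genes, was 11.2-fold higher (8.68 to 14.6), and the epithelial ETS factors Ehf and Elf3 were 7.62-fold (7.02 to 8.3) and 4.11-fold (3.78 to 4.49) higher. Foxa1, Foxa2 and Foxa3, pioneer factors of endoderm, were higher together, at 7.49-fold (6.44 to 8.76), 4.03-fold (3.52 to 4.63) and 3.62-fold (3.1 to 4.24). Prox1, known both as a hepatobiliary and as a lymphatic factor, stood at 345 against 35.7 CPM, on the duct side. Sox4, Klf6, Cebpb, Wwtr1, Yap1, Tead1 and Esrrg were not called, and Sox4 stood at 695 against 372.

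The junction complexes followed. Of 27 tight junction and polarity genes 21 were higher and 1 lower (median 2.16). Patj, a scaffold of the Crumbs polarity complex, was 12-fold higher (10.2 to 14.3), Llgl2, a basolateral polarity protein, 11.5-fold higher (10.1 to 13.2), and Cgn (cingulin) 11.1-fold higher (9.83 to 12.6). Occludin (Ocln) was at 246 against 43 CPM and Cldn2, a claudin that forms cation and water pores, at 241 against 54.2. The member called lower was Cldn1, at 1.6 against 5.86, and F11r, a junction adhesion protein that endothelium also carries, was level at 524 against 528. Of 18 adherens and desmosome genes 12 were higher and 0 lower, led by Cdh1, Dsg2, Ppl (periplakin, 10.2-fold, 9.16 to 11.3) and Dsp (desmoplakin, 8.45-fold, 7.62 to 9.4). The catenins shared with endothelium were not called: Ctnnb1 stood at 359 against 300.4, Ctnna1 at 564 against 346 and Jup at 106 against 72.8. Per length of transcript, Cdh1 stood at 1482 in Prom1+ and 86.6 in Prom1-, and Cdh5 (VE-cadherin of endothelium) at 1.35 and 90, in counts per kilobase of exon scaled to a common total per library. In the Prom1- library the per-length levels of Cdh1 and Cdh5 were close.

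Among 9 keratin genes 3 were higher and 1 lower; relative to genes of like length 6 were higher, and beyond 4-fold 0 were. Krt8, a keratin of simple epithelia, was 2.96-fold higher (2.91 to 3.02), and its partner Krt18 stood at 2412 against 1199, a ratio of 2.01 (1.98 to 2.04) that was called only with the length adjustment. Krt14, a keratin of stratified epithelia also found in mesothelium, was the exception, with 1 count in Prom1+ and 133 in Prom1-, 322-fold lower (56.8 to 12812).

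Basement membrane genes split by chain. Of 25 genes 12 were higher and 3 lower. The laminin gamma chain Lamc3 was 13.5-fold higher (12.3 to 14.9), whereas Lamc1 was at 62 against 40.6. Collagen IV divided likewise: Col4a5 and Col4a6 were 6.91-fold (6.1 to 7.85) and 4.74-fold (3.78 to 6.02) higher, Col4a2 was 2.88-fold lower (2.72 to 3.05), and Col4a1 stood at 158 against 278, lower only with the length adjustment. Nid1 (nidogen, which links laminin to collagen IV) was 7.57-fold lower (6.92 to 8.28). Among 20 integrins 6 were higher, among them the partner chain of CD49f in hemidesmosomes, Itgb4 (4.32-fold, 3.75 to 4.99), Itgb6 (4.5-fold, 3.84 to 5.29) and Itgb8 (9.78-fold, 8.14 to 11.8), which form receptors that activate latent TGF-beta, and 5 were lower, among them Itga1 (3.6-fold, 3.29 to 3.95). Itgb1, the shared beta chain, was level at 518 against 497.

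Cilium and transport genes were higher in part. Of 26 genes of the primary cilium and of cystic liver disease 13 were higher and 1 lower. Bicc1, an RNA-binding regulator of cyst formation, was 6.63-fold higher (6.27 to 7.02) and Pkd2 (polycystin 2) 4.06-fold higher (3.74 to 4.41), while Pkd1 was at 16.9 against 18.8 and the polycystic liver genes Prkcsh and Sec63 at 105 against 89.4 and 106 against 109.9, not called. Dnajb11, an endoplasmic reticulum chaperone, was 2.23-fold lower (2.1 to 2.36), but not relative to genes of like length. Of 27 transport genes 15 were higher and 1 lower. The calcium-gated chloride channel Ano1 was 7.44-fold higher (6.68 to 8.29), the glucose carrier Slc5a1 10.1-fold higher (9.38 to 11), the bile salt carrier Slc10a2 7.04-fold higher (4.66 to 11.1), and the secretin receptor Sctr, which starts ductal secretion, 4.71-fold higher (3.48 to 6.51). Aqp1, a water channel of ducts and of endothelium, was at 15.4 against 714, on the endothelial side.

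**Figure D2:**
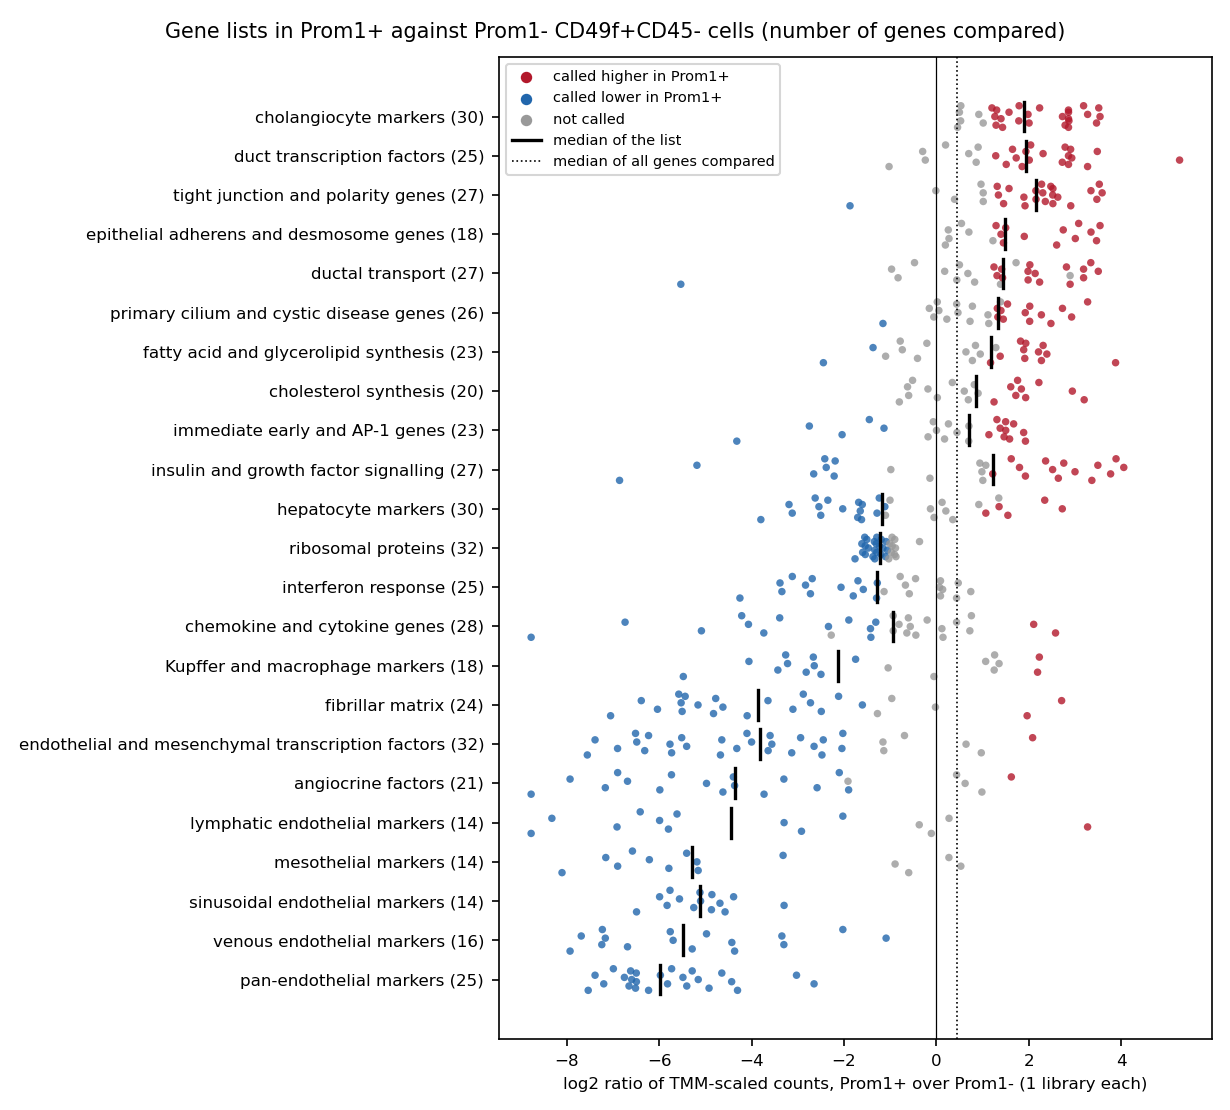
Log2 ratio of scaled counts, Prom1+ over Prom1- (horizontal axis), for each compared member of 23 gene lists, coloured by call, with a bar at the median of each list and a dotted line at the median of all genes, 0.45. Medians run from 2.16 for tight junction and polarity genes to -5.97 for pan-endothelial markers.

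Endothelial genes were lower in Prom1+ cells. All 25 pan-endothelial markers, all 14 sinusoidal and all 16 venous markers compared were called lower, with medians of -5.97, -5.11 and -5.49; the lists share genes. The pan-endothelial markers summed to 308 CPM in Prom1+ and 10803 in Prom1-, so the first sum was 2.85% of the second. Pecam1 (CD31), an adhesion molecule of endothelial junctions, stood at 18.3 against 362, Kdr, a VEGF receptor, at 14.6 against 315, and Egfl7, a secreted matrix protein of vessels, at 35.7 against 1273. Plvap, of the diaphragms of fenestrae and caveolae, was at 8.34 against 1548. Claudin 5 (Cldn5), which seals endothelial junctions, was 147-fold lower (113 to 195), and Erg, an endothelial ETS factor, 167-fold lower (76.3 to 459) on 6 counts in Prom1+.

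Marker genes of each branch of the vessel tree had counts in the Prom1- library, which does not show that cells of each branch were present. Sinusoidal genes included the scavenger receptors Stab1 and Stab2 at 9.8 against 373 and 17.1 against 358, and Clec4g at 21.5 against 1932. The presorted cells held more of the sinusoidal list than the Prom1- library, 17929 against 5954 CPM, with Stab2 at 2812. Arterial markers included the gap junction genes Gja4 (179-fold, 161 to 201) and Gja5 (214-fold, 153 to 309.7), and the Notch ligand Dll4, 53.2-fold lower (42.4 to 67.5). Of 15 arterial genes 10 were lower, and 3 were higher, Jag1, Jag2 and the duct marker Clu, though Jag2 was not called with the length adjustment (log2 ratio 1.59, adjusted 1.33). Venous genes included Ackr1, a chemokine scavenger of venules, 150.1-fold lower (107 to 217), the adhesion receptor Selp, 151-fold lower (95.3 to 256), and Fabp4, 206-fold lower (176 to 242). Of 14 lymphatic markers 10 were lower and 1 higher, Prox1. Ccl21a, which draws dendritic cells and T cells along lymphatics, was at 5.66 against 2473 and in presorted cells at 21.4; Mmrn1 was 85-fold lower (65.2 to 113) and Nts 320.0-fold lower (178 to 642) on 11 counts. Pdpn, another lymphatic marker, stood at 6.42 against 6.92 and was not called.

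Genes of the caveolar and fenestral coat, of vessel-wall clotting control and of the endothelial regulators went the same way. Of 17 caveolar genes 13 were lower, with Gpihbp1, which holds lipoprotein lipase on capillaries, 72.6-fold (68.2 to 77.4); Cav1 and Cav2 were at 139 against 211 and 243 against 271, not called, and Pacsin2 was 2.94-fold higher (2.75 to 3.15). Of 15 genes of clotting control 12 were lower, among them Thbd (thrombomodulin, 54.2-fold, 45.6 to 64.8) and F8 (factor VIII, 28-fold, 25.1 to 31.3), while F3, the tissue factor that starts clotting, was 2.21-fold higher (2.05 to 2.39), a call that ended with DESeq2 size factors. Of 32 endothelial and mesenchymal transcription factors 26 were lower and 1 higher, Gata6, at 170.3 against 40.2. The flow-responsive factor Klf2 was 20-fold lower (18.8 to 21.2) and its relative Klf4 16-fold lower (14.3 to 17.9). Gata4, which specifies sinusoidal endothelium, was at 2.8 against 152. Known repressors of epithelial genes were lower too: Zeb1 was at 13.5 against 74.9, Zeb2 at 4.81 against 42.2 and Snai2 at 0.759 against 9.47. Their part in the ratios of duct genes was not tested. Tcf15 had no count in Prom1+ and 148 in Prom1-, and was at least 119-fold lower, set against a floor of 3 counts in that library, or 95.9-fold at the limit of its counting interval. Hoxa2 and Nepn, also without a count, were at least 144-fold and at least 127-fold lower, with limits of 116 and 102.

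Mesothelial and stromal genes lay on the Prom1- side. Of 14 mesothelial markers 10 were lower (median -5.29): Msln (mesothelin) was at 1.55 against 115, Upk3b at 1.17 against 112 and Upk1b at 0.496 against 70.7 CPM. In presorted cells Msln was at 33.8 and Upk3b at 24.8. Krt19, Gpm6a, Cav1 and Podxl, which duct or endothelial cells also carry, were not called. Wt1 was at 0.0584 against 2.47. Of 13 portal fibroblast and pericyte genes 10 were lower, led in level by Dcn (decorin) at 6.33 against 529.8, and 3 higher, Gas6, Entpd2 and Slit2. Gas6, a ligand of TAM receptors, was at 2220.2 against 580.5. Of 14 stellate cell genes 1 was higher and 7 lower, and levels differed widely between members. The highest member was a different gene in each library, at 251 CPM in Prom1+ and at 248 in Prom1-. Some members were low in both libraries: Des was at 0.467 against 4.94, Lrat at 1.66 against 4.17 and Pdgfrb at 0.321 against 0.848. The smooth muscle gene Acta2 was at 0.321 against 5.79. Of 24 fibrillar matrix genes 19 were lower, with Col3a1 at 1.55 against 71.2 and Sparc at 487 against 2113, and 2 were higher, Fn1 at 1165 against 178 and Vcan at 4.96 against 1.27, which was not called with the length adjustment. Vim (vimentin) was at 8.87 against 1206 and 136-fold lower (121 to 153).

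Markers of blood cells lay at low levels in both libraries. Kupffer and macrophage markers summed to 109 CPM in Prom1+, 172 in Prom1- and 1228 in presorted cells; 10 of 18 compared were lower and 2 higher. C1qb stood at 1.17 against 52 and Clec4f at 1.81 against 11.3, while Csf1r, the receptor of macrophage growth factor, was at 79.1 against 16.9, 4.69-fold higher (4.1 to 5.37), with Adgre1 (F4/80) at 0.788 against 1.62. Of 15 platelet and megakaryocyte genes 14 were lower; leaving aside Vwf, Selp and Clec1b, which endothelium also makes, Itga2b was at 2.39 against 11.4 and Ppbp at 0.321 against 9.68. Of the 20 lymphocyte markers 11, Cd3e and Gzma among them, were under 10 counts in both libraries and were not compared. Lcn2, a neutrophil granule gene that injured epithelium also makes, was level at 785 against 797, while S100a8 was at 0.0875 against 5.02. Their part in the ratios was not tested.

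Hepatocyte genes split. Of 30 markers 5 were higher and 16 lower, and relative to genes of like length 6 and 10. Alb (albumin) was at 3241 against 1265, Apob, which forms lipoproteins, at 81.5 against 16, and Hnf4a, the central hepatocyte factor, at 84.1 against 12.7. On the other side Hpx (hemopexin) was at 37.4 against 521, Apoa1 at 48.3 against 420.3, Glul, the glutamine synthetase of cells around the central vein, at 38.8 against 354, and Cyp2e1, a cytochrome that oxidizes ethanol, at 32.2 against 131. In presorted cells Alb was at 5267, Hpx at 4609.6 and Cyp2e1 at 797. The whole list summed to 9192 CPM in Prom1+, 7924 in Prom1- and 35497 in presorted cells. Adh1, the main liver alcohol dehydrogenase, was 5.38-fold lower (5.05 to 5.74); of 14 genes of alcohol and aldehyde oxidation 2 were higher and 4 lower, and Aldh2, which clears acetaldehyde, stood at 197 against 269.8.

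Ligand and receptor genes were laid out in 57 pairs from 53 ligand and 54 receptor genes. Of the ligand genes 12 were higher and 25 lower in Prom1+, and of the receptor genes 15 were higher and 24 lower. In 7 pairs the ligand was lower and the receptor higher, in 7 the reverse, in 3 both were higher and in 13 both were lower. Levels in sorted populations do not show that a signal passed between them.

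Wnt amplifiers and Wnt ligands of vein endothelium were lower in Prom1+. Rspo3, which raises Wnt signals by sparing their receptors, was at 1.49 against 362, and Rspo1 at 0.321 against 38.3, while Lgr4, a receptor of R-spondins, was 6.78-fold higher (5.8 to 7.99). Wnt2 was 144-fold lower (110.3 to 190.5) and Wnt9b 103-fold lower (67.5 to 165). Other Wnt genes lay on the duct side, with Wnt7b 7.16-fold higher (5.75 to 9.02) and Wnt4 2.9-fold higher (2.62 to 3.21), as did the receptor Fzd7 (5.53-fold, 4.41 to 7.0) and the ubiquitin ligases Rnf43 (5.41-fold, 4.2 to 7.07) and Znrf3 (3.59-fold, 2.84 to 4.59), which remove Wnt receptors. Axin2, a transcript that Wnt signals induce, was at 0.146 against 0.989 CPM, on 5 and 14 counts, and Lgr5 at 2.42 against 0.918. In all 10 of 31 Wnt pathway genes were higher and 7 lower, 8 and 7 with the length adjustment, and more were lower than higher with the length trend taken off whole.

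Growth factor receptors of epithelium were higher in Prom1+ and some of their ligands were lower. Met, the receptor of hepatocyte growth factor, was 6.76-fold higher (5.94 to 7.72), and its ligand Hgf was 24.6-fold lower (17.6 to 35.3). Among receptors of the EGF family Egfr was 5.15-fold higher (4.51 to 5.89), Erbb3 10.3-fold higher (9.0 to 11.8) and Erbb4 13.7-fold higher (10.1 to 18.9); the ligand Nrg1 was 15.4-fold lower (11.5 to 20.8) and Hbegf 2.63-fold higher (2.46 to 2.81). Of the FGF receptors Fgfr2, Fgfr3 and Fgfr4 were 11.3-fold (10.2 to 12.5), 6.23-fold (6.0 to 6.47) and 8.0-fold (6.78 to 9.5) higher, and Fgf1 was 3.9-fold lower (3.15 to 4.85). Irs2, an adaptor of the insulin receptor, was at 62.3 against 3.74, while Insr itself was 4.56-fold lower (4.23 to 4.92). The growth factor binding proteins Igfbp7 and Igfbp5 were lower, 4.63-fold (4.57 to 4.7) and 116-fold (100.1 to 135). In all 14 of 27 genes of insulin and growth factor signalling were higher and 7 lower.

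Several pairs of vessel growth signals had the ligand higher and the receptor lower, and others did not. Vegfa, the main endothelial growth factor, was at 272 against 35.7, and its receptors Kdr and Flt1 were at 14.6 against 315 and 2.51 against 252. Angpt1, which stabilizes vessels, was 9.1-fold higher (7.79 to 10.7), and its receptor Tek 56.4-fold lower (48.9 to 65.5). Sema3c and Slit2, guidance cues, were 5.37-fold (4.85 to 5.95) and 5.61-fold (4.41 to 7.22) higher, and the receptor genes paired with them, Plxnd1 and Robo4, 18.5-fold (16.5 to 20.8) and 42.3-fold (35.1 to 51.4) lower. Gas6 was 3.82-fold higher (3.74 to 3.91), with its receptors Axl and Mertk 18.4-fold (12.1 to 29.1) and 17.6-fold (14.3 to 21.8) lower. Angpt2, another ligand of Tek, was 13.3-fold lower (9.84 to 18.2), the vessel peptide Adm and its receptor gene Calcrl were both lower (19.9-fold, 13.9 to 29.4 and 40-fold, 35.5 to 45.1), and Vegfb stood at 15.3 against 18.3 and was not called. Vegfc, the lymphatic growth factor, was 45.6-fold lower (38.1 to 54.9), with its receptor Flt4 9.82-fold lower (8.89 to 10.9).

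Notch genes divided by family member. Jag1, the ligand mutated in Alagille syndrome with its paucity of bile ducts, was 3.08-fold higher (2.95 to 3.22), and Notch2, the receptor mutated in the same syndrome, 3.4-fold higher (2.77 to 4.2). Dll4, Notch1 and Notch4 of endothelium were 53.2-fold (42.4 to 67.5), 7.2-fold (6.3 to 8.24) and 17.9-fold (13.7 to 23.7) lower. Hes1, a target of Notch receptors, stood at 949 against 581, higher only with the length adjustment, and Hey1 was 5.49-fold lower (4.45 to 6.81). Bmp2, an endothelial signal that induces the iron hormone hepcidin in hepatocytes, was 20.6-fold lower (18.8 to 22.7), with the receptor Bmpr1a 6.75-fold higher (6.01 to 7.59). The BMP target Id3 was 5.47-fold lower (5.37 to 5.58), and Id1 and Id2 stood at 219 against 338 and 1661 against 1173. Tgfbr2 was 5.03-fold lower (4.74 to 5.34) and Tgfbr1 3.62-fold higher (3.15 to 4.18). Ihh, a hedgehog ligand, and Ptch1, a hedgehog receptor and target, were both higher, at 6.89 against 0.989 and 17.4 against 1.84.

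**Figure D3:**
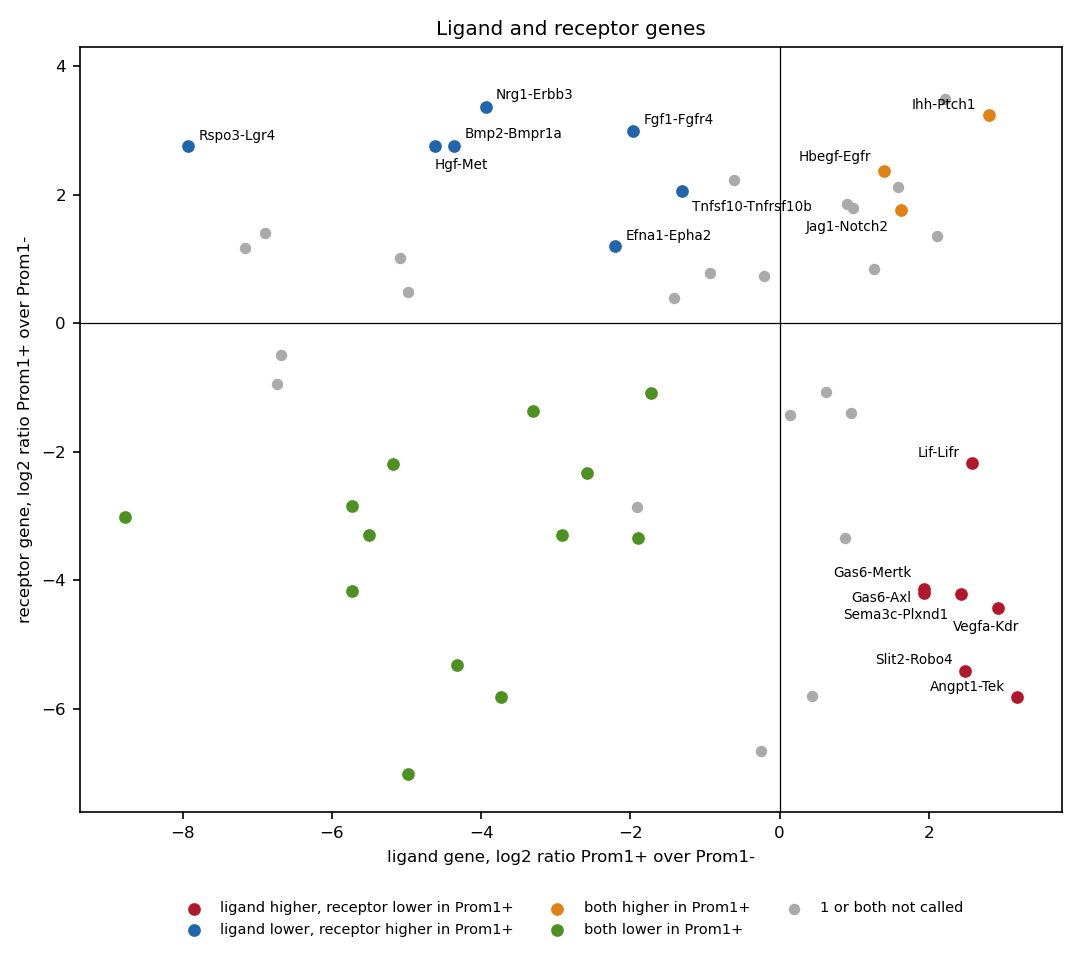
Log2 ratio Prom1+ over Prom1- of the ligand gene (horizontal) and the receptor gene (vertical) for the 53 pairs with both genes compared, coloured by call, 1 library a side. Vegfa-Kdr, Angpt1-Tek and Slit2-Robo4 lie at the lower right and Rspo3-Lgr4, Hgf-Met and Nrg1-Erbb3 at the upper left.

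Some targets of YAP and TAZ, the coactivators that the Hippo pathway restrains, were higher. Ankrd1 was 3.85-fold higher (3.66 to 4.05), Ccn2 2.77-fold higher (2.69 to 2.85) and Ccn1 2.28-fold higher (2.24 to 2.33), and Wwc1, an upstream Hippo regulator, 12.4-fold higher (11.5 to 13.4). Yap1 and Wwtr1 (TAZ) were level, at 44.6 against 38.8 and 96.2 against 114. Of 26 genes 9 were higher and 3 lower, among them the listed target Axl, at 0.729 against 13.4. The median log2 ratio of the list was 0.47 against 0.45 over all genes compared, and 0.30 against 0.47 with the length adjustment. Tnfrsf12a, also listed, stood at 202 against 121, higher only with the length adjustment. The call of Ccn1 ended with TMM over these 2 libraries alone and with DESeq2 size factors.

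More inflammatory genes were lower than higher in Prom1+ cells. Of 28 chemokine and cytokine genes 12 were lower and 2 higher, Cx3cl1 at 29.5 against 6.85 and Lif at 12.7 against 2.12. Cxcl10 and Cxcl9, induced by interferon gamma, were 16.8-fold (14.4 to 19.7) and 18.6-fold (14.8 to 23.5) lower, and Il33, an alarm cytokine of barrier and vessel cells, was at 5.16 against 175. The neutrophil chemokines Cxcl1 and Cxcl5 were at 83.8 against 96.3 and 20 against 27.2, not called. Of 25 interferon response genes 13 were lower and 0 higher, with Ifit3 10.2-fold lower (9.19 to 11.2) and Gbp2 6.61-fold lower (6.08 to 7.2). B2m, the shared chain of class I molecules, was 3.61-fold lower (3.57 to 3.66), but the class II genes Cd74 and H2-Ab1 stood at 804 against 542 and 240.5 against 274, of which Cd74 was higher only with the length adjustment; Ciita, their transcriptional activator, was 6.95-fold higher (4.61 to 11).

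Acute phase and mucosal defence genes divided, 6 of 23 higher and 11 lower. Cp (ceruloplasmin) was at 5455 against 861, C3 at 2751 against 1112, Pigr, which carries immunoglobulin A into bile, at 759 against 84.8, and Muc1 at 509.9 against 105. Lower were Slpi, a protease inhibitor, at 3.56 against 355, Saa3 at 0.817 against 136, Hp (haptoglobin) at 75.7 against 703 and Lbp, which binds endotoxin, at 18.9 against 196. Saa1 and Saa2 were 8.2-fold (7.15 to 9.44) and 9.17-fold (7.84 to 10.8) lower, and as near-identical copies their counts are uncertain.

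Immediate early genes, which tissue digestion is known to induce, were high in both libraries and higher in 10 of 23 cases, lower in 5; beyond 4-fold 0 were higher. Atf3, a stress-induced factor, was at 1344 against 353, Jun at 3552 against 1615, Egr1 at 1693 against 683 and Fosb at 275 against 91.5, though the call of Jun ended with TMM over 2 libraries, DESeq2 size factors and the values normalized by the authors. Fos and Dusp1 were at 2053 against 1508 and 2329 against 2324, not called. The list summed to 18976 CPM in Prom1+, 12543 in Prom1- and 5373 in presorted cells. The part of digestion and sorting time was not tested. Of 24 heat shock and unfolded protein genes 1 was higher and 5 lower, 4.2% and 20.8% against 16.9% and 13.7% over all genes compared. Hspa5 (BiP) was at 859 against 893. Antioxidant genes were lower in 8 of 21, and in 4 relative to genes of like length, with Nqo1 at 5.86 against 76 and Hmox1 at 7.76 against 47.2.

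Lipid synthesis genes were called higher more often than lower. Of 20 genes of cholesterol synthesis 9 were higher and 0 lower, among them Sqle (squalene epoxidase, 4.66-fold, 4.07 to 5.34); Srebf2, their transcription factor, was 3.29-fold higher (2.81 to 3.88). Of 23 genes of fatty acid and glycerolipid synthesis 11 were higher and 2 lower, with Srebf1 4.63-fold higher (4.23 to 5.07), Fasn 4.96-fold higher (4.22 to 5.87), Gpam 14.7-fold higher (11.3 to 19.5) and Mlxipl (ChREBP) 5.25-fold higher (3.93 to 7.14). The desaturase Scd1 stood at 20.5 against 43.9 and Scd2 at 208 against 121. Scd1 was called lower only with the length adjustment, TMM over 2 libraries, DESeq2 size factors or the values normalized by the authors. For the authors' values the call used the ratio alone, without an interval. Of 19 oxidation genes 6 were higher and 0 lower, with Ppargc1a, a coactivator of mitochondrial genes, 7.61-fold higher (6.0 to 9.78); with TMM over these 2 libraries alone 3 were.

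Of 29 cell cycle genes 1 was higher, Ccnd1 (2.23-fold, 2.08 to 2.39), and 5 were lower. These were 3.4% and 17.2%, against 16.9% and 13.7% over all genes compared. The number lower was 8 with TMM over these 2 libraries alone and 2 with library totals. Mki67 was at 22.2 against 13.8 and Top2a at 20 against 13.7, and the inhibitor Cdkn1a was 3.9-fold lower (3.58 to 4.25). Of 21 genes associated with progenitor and stem cells, some of them duct markers too, 8 were higher and 2 lower. With TMM over these 2 libraries alone 5 were higher, and Epcam, Cd24a and Bmi1 were no longer called. Besides Prom1 and Sox9 the 8 were Epcam (2.45-fold, 2.37 to 2.53), Cd24a (2.47-fold, 2.38 to 2.57), Anpep (6.85-fold, 5.31 to 8.98), Lgr4, Myc (2.76-fold, 2.55 to 3.0) and Bmi1 (2.31-fold, 2.14 to 2.49); Cd47 (2.48-fold, 2.41 to 2.54) and Klf4 were the lower ones. Cd44 stood at 57.6 against 32.2, Lgr5 at 2.42 against 0.918 and Afp, the fetal albumin, at 1.05 against 0.283. Dlk1, Sox2 and Pou5f1 were under 10 counts in both libraries and were not compared.

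The genes farthest from 1, by the limit of their interval nearest to it and with at least 100 counts, included vessel and mesenchymal genes on the lower side and genes of several kinds on the higher side. Above 1 stood Pik3ap1, an adaptor of phosphoinositide 3-kinase, with 11078 counts against 309, 14.8-fold higher (13.2 to 16.6). Ptgfr and Bdkrb2, receptors of prostaglandin F2 alpha and of bradykinin, had 873 counts against 20 and 775 against 18, and were 18-fold (11.6 to 29.7) and 17.8-fold (11.2 to 30.2) higher. Myh14, a nonmuscle myosin, was 14.4-fold higher (12 to 17.4), Carmil1, an actin regulator, 13.2-fold higher (11.9 to 14.6), Bche (butyrylcholinesterase) 12.4-fold higher (11.3 to 13.6), and Macc1, an inducer of Met transcription, 16-fold higher (11 to 24.4). Below 1 stood, besides Ccl21a and Rspo3, Cnmd (chondromodulin, an inhibitor of vessel growth) at 3.41 against 854, Ly6c1 at 1.34 against 327, Il2rg, the shared chain of interleukin receptors, at 1.58 against 330.4, and Igfbp6 at 0.379 against 104. Dmkn, Tmem119 and Osr1 had 3, 2 and 2 counts in Prom1+ and 665, 524 and 465 in Prom1-, ratios with intervals as wide as 537-fold (183 to 2609) lower for Dmkn. Ednrb, the endothelin receptor of endothelium, combined a high level with a large ratio, 18.9 against 2431 and 129-fold lower (119 to 139). Some genes overlap others on the opposite strand, Prom1, Rspo3, Irs2, Lamc3 and Myh14 among them, and no source used here states whether reads were counted by strand.

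Per length, the highest nuclear genes outside predicted models were Spp1, Clu and Apoe in Prom1+, at 37965, 27656 and 11067 scaled counts per kilobase. In Prom1- it was B2m, at 11226 against 4567 in Prom1+, with Spp1 close to it at 10752 and Clu and Apoe at 7142 and 6916. Mitochondrial transcripts such as mt-Co3 (8802 and 13032) ranked with them in both. Called lower at a ratio of 0.460, mt-Co3 was not called with the length adjustment (0.768). The predicted genes Gm10800 and Gm26870 stood apart: in CPM Gm10800 was at 4625 in Prom1+, 14134 in Prom1- and 36.3 in presorted cells, and Gm26870 at 4974, 14876 and 44.4. Both thus took a larger share of the sorted libraries than of the presorted one, and the part of library quality in the ratios was not tested. Gm10800 was called lower at a ratio of 0.327, but not with the length adjustment (0.517).

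Transcript length went with the ratio. Over 14857 genes with at least 50 counts in both libraries together, Spearman's rho of the log2 ratio with summed exon length was 0.25, a description, since genes of these 2 libraries share depth and preparation. The median log2 ratio ran from -0.61 in the shortest eighth of genes (up to 1717 bases) to 0.73 in the longest (from 8966 bases). The trend was also present inside lists of one direction. Over 77 genes of the epithelial lists the median was 1.28, 2.30 and 2.80 in the short, middle and long genes when split into 3 groups, with rho 0.43, and over 54 endothelial genes, all called lower, it was -6.36, -5.79 and -4.77, with rho 0.33. Ribosomal protein genes, most of them short, were lower in 22 of 32 cases and in 4 relative to genes of like length, and mitochondrially encoded genes in 5 of 13 and in 1. Setting each gene against genes of like length gave 3722 genes higher (19.0% of 19576) and 2245 lower (11.5%); 2787 and 2075 were called the same way by both, and none turned. The libraries received 12 to 14 amplification cycles for low input and 6 to 10 for higher input, and which applied to each is not stated, so amplification and RNA quality were not tested.

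**Figure D4:**
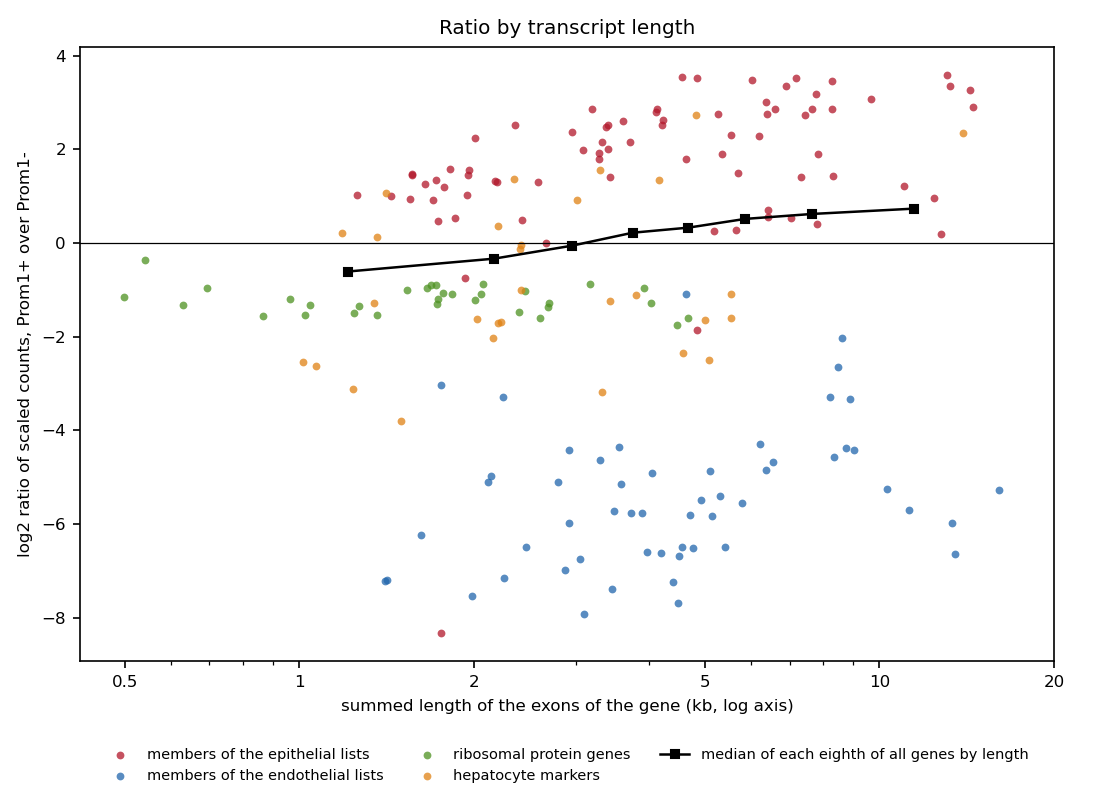
Log2 ratio of scaled counts (vertical axis) against the summed exon length of the gene in kilobases (log axis) for members of the epithelial, endothelial, ribosomal protein and hepatocyte lists; black squares are the medians of the 8 equal groups of all genes by length, each placed at its median length. The squares run from -0.61 to 0.73, epithelial genes lie mostly above them and endothelial genes below.

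At the low end, the Prom1+ library held more scattered counts. Of 1509 olfactory, vomeronasal and taste receptor genes, which liver cells are not known to use, 69.3% had a count in Prom1+ and 27.1% in Prom1-; they took 0.0570% and 0.0147% of all counts, and their percentile 95 was 0.817 and 0.353 CPM. Genes under those levels, such as Erg at 0.175 CPM in Prom1+, cannot be told apart from this scatter there. Of the 1509 receptor genes 337 were compared, and 63 were called higher and 6 lower, with a median log2 ratio of 1.39. Over all genes compared 16.9% were higher and 13.7% lower, with a median of 0.45. Calls of higher thus also arose among genes of this scatter. Raising the filter to levels above percentile 95 left 3145 genes higher and 2704 lower, with a median of 0.18. At the edge of the filter, 395 genes had a larger count of exactly 10, and in 344 the Prom1+ count was not the smaller; just outside, 494 genes had 9, and in 440 it was not.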

How the data were processed

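Estimated counts for each gene and a table of normalized values were deposited by the authors. Per the values, the deposited normalized table holds CPM with 1 added, and it was used as an alternative only. Libraries were polyA-selected with a stranded kit, per the labels' protocols, whereas Quant-seq, which tags 3′ ends, stands in the title of the series; this was not resolved. TopHat2, Partek 3 and mm10 are named in the submitters' processing notes, and no source used here gives settings or annotation. The column named only CD45 was taken as presorted cells. Scaling and the naming rule, and nothing else, used the library labelled Prom1+CD49f+CD45+.

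Estimated counts were rounded and scaled by TMM in edgeR 4.0.16 over the 4 libraries and the 21640 genes with at least 10 counts in any. Of 41128 identifiers 40254 matched GENCODE vM21 (mm10), the source of positions and lengths. Ratios have exact 95% conditional binomial (Clopper-Pearson) intervals and levels exact Poisson intervals; both cover counting error only, since amplified reads without molecular identifiers are not independent molecules. A count of 0 was set to 3 counts, 0.0875 CPM in Prom1+ and 0.212 in Prom1-. The length adjustment subtracted a lowess curve (span 0.3, genes with at least 50 counts) of the log2 ratio on length, centred at its median. The script was tested on simulated counts. Per-length levels are counts per kilobase of exon scaled to the same total in each library.

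The members, 50 gene lists and named genes were chosen with earlier results of these data known. The rule named the sorted proteins, the markers, 15 genes in each direction with at least 100 counts by interval limit, with and without length adjustment, up to 8 members per list by level with those called against the majority, the 10 highest per-length genes per library, the ligand and receptor genes, and genes with 0 counts in 1 library and at least 100 in the other. Predicted, immune receptor, ribosomal and histone genes were left out of the 15. Some list members are counted but not reported here by name. Other list members named were chosen after their values were seen. No part of the alternatives was a test, and 14 were run.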

Additional observations from a re-analysis of the deposited data

How the results depend on the processing

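No paired analysis was possible because each population had 1 library. The counts of genes called higher and lower, 3349 and 2704, changed by more than 1.5 times only with the size of ratio required: 9114 and 6246 with the whole interval beyond 1-fold, and 836 and 1339 beyond 4-fold. Scaling moved the split more than the total. The median log2 ratio shifted by -0.26 with TMM over 2 libraries (2392 higher, 3437 lower) and -0.17 with size factors of DESeq2 (2703 and 3175). With library totals it shifted by 0.23 (4512 and 2200). With the authors' normalized values it shifted by -0.28 (2753 and 3188). Those values hold an added 1 and were called on the ratio alone, without an interval, so more than scaling differed there. TMM without the library labelled Prom1+CD49f+CD45+, an alternative chosen after seeing the data, gave 3380 and 2683. No scaling turned a list from more members higher to more lower, or the reverse, and no gene called turned direction under any of the 9 alternatives run on single genes. Of 1008 list, pair and named genes, between 85 and 93 lost their call with a length adjustment. Lists that turned to more lower than higher were the Wnt pathway with the length trend taken off whole and, beyond 4-fold, keratins and immediate early genes. Alcohol oxidation genes turned to more higher with the adjustment by exon length, antigen presentation genes with longest transcripts and beyond 4-fold, and erythroid markers with at least 50 counts. The rho with length, 0.25, was 0.38 over the 9966 genes with the most counts and 0.28 with longest transcripts. Calls of genes near the 2-fold limit, and of genes under about 1 CPM, are limited by depth, which was lower in Prom1-.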

Other observations

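Genes of the Y chromosome that most tissues express, looked at after the data were seen, had ratios that went with their length. Eif2s3y (4161 bases of exon) stood at 42.1 against 67.8 CPM in Prom1+ against Prom1-, and Ddx3y (5199 bases) at 61.2 against 54.7, neither called. Uty (9791 bases) was 2.84-fold higher (2.51 to 3.23) and Kdm5d (15164 bases) 3.11-fold higher (2.72 to 3.57). With the length adjustment Uty was no longer called (log2 ratio 1.14), while Kdm5d still was (1.21). Xist had 21 and 9 counts.

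The genes without a count in Prom1- and with at least 100 in Prom1+ were 12 predicted, RIKEN, pseudogene or unnamed entries, such as Obox4-ps28 with 102 counts, while those without a count in Prom1+ and with at least 100 in Prom1- were the named genes Hoxa2, Nepn and Tcf15. Ssty2, a multicopy Y-linked gene of the testis, had 123 counts in Prom1+ and 1 in Prom1-.

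Several genes usually read as leukocyte markers were called higher in Prom1+, picked after their values were seen. In the lists they come from, 1 of 11 neutrophil markers was higher and 7 lower, 2 of 18 Kupffer and macrophage markers were higher and 10 lower, and 2 of 9 lymphocyte markers were higher and 2 lower. Besides Csf1r these were Cxcr2 at 29.3 against 6.29 CPM, Mpeg1 at 6.77 against 1.48, Ms4a1 at 7.97 against 1.91 and Cd8a at 1.95 against 0.424. The neutrophil gene S100a9 was at 0.204 against 3.39 and the macrophage gene C1qa at 0.671 against 4.73. In presorted cells Cxcr2 was at 2.21 and Ms4a1 at 1.01.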
